A study of Mus musculus with 9 samples.

Results

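This account covers 1 of the comparisons the series allows: tumour cells labelled lgT/Ras (LTR 1, LTR 2 and LTR 3) against wild-type neural stem cells (NSC 1, NSC 3 and NSC 5), which are 6 of the 9 RNA sequencing libraries. The libraries were chosen by the names in the count table and the sample labels, not by any measured value. The other 3 libraries (NF1 1, NF1 2 and NF1 3) are tumour cells labelled shp53, Nf1-/-, CDK4. They enter only where both kinds of tumour cell are set side by side.

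All libraries were made from mouse cells in culture, kept for up to 10 passages in a standard medium for neural stem cells. The stem cells came from the subventricular zone of the brain, and the tumour cells are described as derived from them. The series design states 3 independent cultures of each cell type. Its title names 2 transformed lines (GSC1 and GSC2) without saying which carries lgT/Ras. The 3 LTR libraries may therefore be cultures of 1 line, and p-values measure the spread between those cultures. Sex, age and strain of the source animals are not given in the labels used here.

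The subventricular zone lines the lateral ventricles and keeps a pool of glia-like stem cells that give rise to neurons, astrocytes and oligodendrocytes. The labels do not spell out lgT. The usual reading is the large T antigen of SV40, which binds the RB family and p53 and so releases the cell cycle. Ras proteins are small GTPases at the head of the MAPK and PI3K cascades, and activated forms transform cells whose RB and p53 pathways are disabled. The large T antigen has no row in the mouse gene table, and a Ras transgene could be counted with the endogenous gene, so neither can be checked directly.

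Values are CPM, read counts divided by the library size and put on one common scale, with library sizes adjusted by TMM over the 6 libraries, and a log2 difference is LTR minus NSC with its standard error (SE) from edgeR's quasi-likelihood fit, n = 3 cultures per group. A gene is called, and said to have risen or fallen, at a Benjamini-Hochberg adjusted p below 0.05 over all 15249 genes tested. Total counts per library ranged from 28600479 (LTR 2) to 57231024 (NSC 3). Correlations of log2 CPM were 0.95 to 0.991 within NSC, 0.963 to 0.985 within LTR and 0.808 to 0.821 between the groups, and the first principal component held 81.6% of the variance. NSC 3 stood apart from NSC 1 and NSC 5. By the column names of the count table all NSC libraries ran on one sequencing lane and all LTR libraries on another; an effect of the lane and one of the cells cannot be told apart. In bulk RNA, fewer cells of a type and less RNA per cell cannot be told apart either.

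Of the 15249 genes, 7084 were called (46.5%): 3168 rose in LTR (20.8%) and 3916 fell (25.7%). The number that rose was 1895 without NSC 1 and 2055 without NSC 5, while the number that fell stayed within 3277 to 4343 when any 1 library was left out. At a change of at least 2-fold, 5033 were called (33.0%), 1879 higher and 3154 lower. Large changes were mostly losses: 182 called genes were at least 16-fold higher and 973 at least 16-fold lower. For 9070 genes (59.5%) all libraries of one group lay above all of the other. The median log2 difference over all genes was -0.03. These shares are the background for every count below: a list of genes with about 20.8% higher and 25.7% lower looks like the genome at large. Where members passed the filter through one group alone they had to differ, so the counts below describe the members tested.

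**Figure D1:**
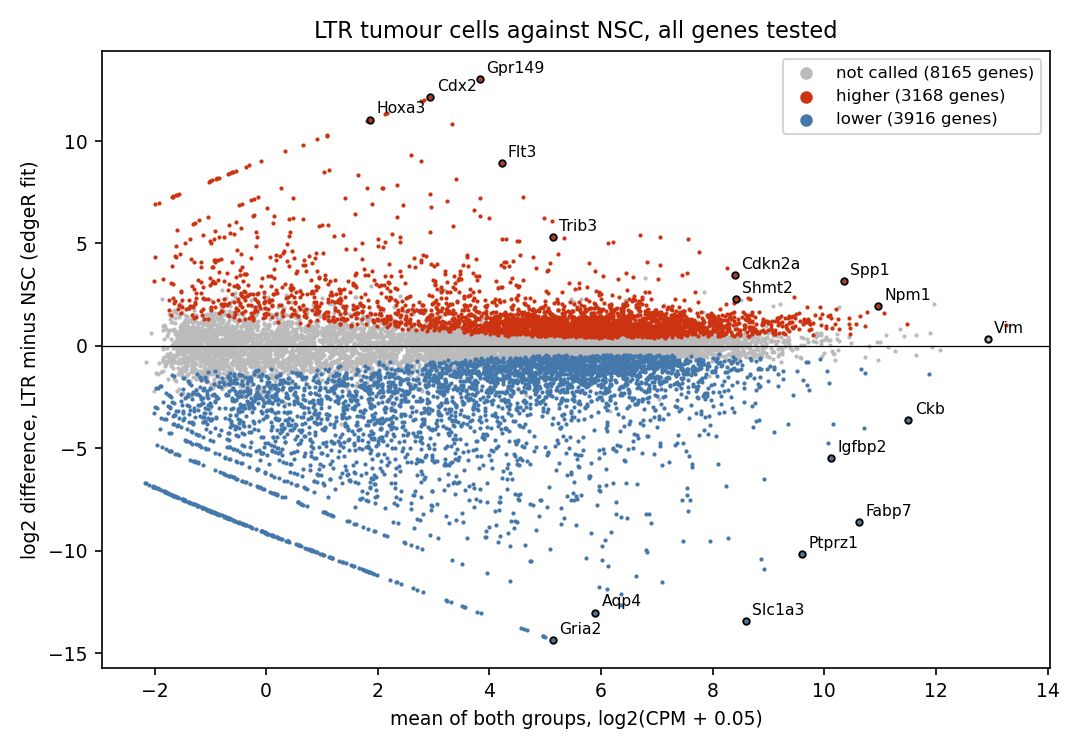
Each point is 1 of the 15249 genes tested, with its mean level over both groups (x axis, log2 of CPM plus 0.05) and its fitted log2 difference, LTR minus NSC (y axis). Called genes are red (3168 higher) or blue (3916 lower), and the diagonal lines of points at the lower and upper left are genes with no or few counts in one group.

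Expression of the genes the labels point to was as follows. Trp53, which encodes p53, measured 106, 116 and 100.3 CPM in NSC 1, 3 and 5 and 231, 284 and 260.4 CPM in LTR 1, 2 and 3, without overlap (1.27 ± 0.16, adjusted p = 0.000696). Rb1 was not called (-0.75 ± 0.33, adjusted p = 0.0966), with 93.6, 58.3 and 88.4 CPM in NSC and 60.4, 26.5 and 55.6 CPM in LTR. Hras measured 71.1, 96.04 and 76.5 CPM in NSC and 95.7, 166 and 107 CPM in LTR, where LTR 2 was highest (0.60 ± 0.24, adjusted p = 0.0768). Nras overlapped between the groups (-0.05 ± 0.14, adjusted p = 0.792). Neither Hras nor Nras passed the test in the 6 libraries, though Hras did without LTR 1, and all 3 LTR cultures had more p53 mRNA than any NSC culture. Target genes of p53 went the other way more often: of 32 tested, 16 fell and 2 rose (median -0.88).

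Developmental transcription factors that NSC libraries lacked were among the largest increases. Cdx2, the caudal homeobox factor of trophectoderm and intestinal epithelium (chromosome 5, 147300805 to 147307270 in GRCm38), had no count in any NSC library and 26.8, 15.1 and 3.91 CPM in LTR. Set against a floor of 3 counts over the NSC group, the LTR mean was at least 666-fold higher. Such bounds, here and below, hold for the group mean and not for each culture. Lhx1, a LIM-homeobox factor of kidney and head development (chromosome 11, 84518284 to 84525535), likewise went from 0 to 24.8, 9.36 and 8.18 CPM (at least 615-fold). Shox2, a homeobox factor of limb and heart pacemaker (13.5, 4.12 and 9.03 CPM, at least 387-fold), and Esx1, an X-linked factor of placenta and testis (2.52, 15.9 and 7.48 CPM, at least 376-fold), were also at 0 in all NSC libraries. The 3 LTR cultures were all above 0 for each of these, but they differed among themselves by 3-fold or more, in different orders: LTR 1 was highest for Cdx2, Lhx1 and Shox2 and lowest for Esx1. Reads of the gene and of the antisense RNA beside it cannot be separated because the labels name no directional kit, as for Lhx1 and its neighbour Lhx1os, which rose from 0 too (at least 63.4-fold, chosen after its values were seen).

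The other 8 of the 12 largest increases held 2 more transcription factors (Twist2 and Hoxa5) and 6 genes of other kinds. Gpr149, an orphan G protein-coupled receptor, was at 0 in NSC and at 72.4, 10.1 and 2.96 CPM in LTR (at least 1240-fold higher), so LTR 1 carried most of its reads. Kcnq1, the cardiac and epithelial potassium channel at an imprinted locus, went from 0 to 24.6, 5.2 and 10.96 CPM (at least 592-fold). It overlaps the antisense RNA Kcnq1ot1, so the source of its reads is uncertain without strand. Flt3, a receptor tyrosine kinase of blood progenitors, rose from 0.0261, 0.165 and 0 CPM to 48.5, 19.6 and 43.1 CPM (8.91 ± 0.79, adjusted p = 0.000193). Twist2, a basic helix-loop-helix factor of mesenchyme, had 3 counts over all NSC libraries and 11.3, 20.6 and 8.82 CPM in LTR, a ratio of 568 (exact 95% counting interval 194 to 2760). Spint1, an inhibitor of the protease that activates HGF, rose from 0, 0.0551 and 0.159 to 14.6, 24.8 and 23.6 CPM (8.17 ± 0.71, adjusted p = 0.000178). Klra4 (a natural killer cell receptor with near-identical copies, so that its count is uncertain), Rnf183 and Hoxa5 complete the 12. Rnf183, a RING-finger ligase, had 2 counts over NSC and 9.53, 17.5 and 8.94 CPM in LTR, a ratio of 756 (209 to 6250).

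Hox genes were at or near 0 in NSC and low but present in LTR. Of 39 Hox cluster genes, 33 had too few counts to test, and the 6 that could be tested (all in the HoxA cluster on chromosome 6) rose; they passed the filter only through LTR, so that count supports nothing by itself. Hoxa5 measured 0.13, 0 and 0 CPM in NSC and 10.6, 7.74 and 11.5 CPM in LTR (7.86 ± 0.94, adjusted p = 0.000627). Hoxa3 went from 0 to 8.2, 5.78 and 7.51 CPM (at least 312-fold higher) and Hoxa4 from 0 to 3.1, 4.2 and 5.25 CPM (at least 182-fold). Hox proteins specify position along the body axis, and the forebrain, where these stem cells come from, normally lies ahead of the Hox domains. The summed Hox level was 0 to 0.2 CPM in NSC and 21.2 to 31.4 CPM in LTR. Over the 6 genes the median log2 difference was 8.84, or 7.29 with the 3 genes at 0 in NSC set at their bound. With the filter of 10 CPM in 3 libraries none of them was tested.

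Outside the Hox clusters, 111 homeobox and other developmental factors were listed, 57 had too few counts, and of the 54 tested 27 rose and 12 fell (median 1.53). Of the 54, 4 had no count in NSC and 2 none in LTR; a gene that passed the filter through one group alone had to differ, so these counts and the median support nothing by themselves. Nr2f2 (COUP-TFII), a nuclear receptor of mesenchyme and veins, measured 5.55, 7.18 and 5.97 CPM in NSC and 88.3, 125 and 98.2 CPM in LTR (4.06 ± 0.21, adjusted p = 3.03e-05). Msx1, a factor of crest-derived mesenchyme, rose from 1.38, 1.78 and 1.41 to 24.5, 21.4 and 22.6 CPM (3.90 ± 0.24, adjusted p = 5.39e-05). Gata2 (4.74 ± 0.44, adjusted p = 0.00024) and Runx1 (1.42 ± 0.19, adjusted p = 0.00106), both factors of blood formation, rose as well. Among forebrain factors, Lhx2, which patterns the cortex, fell from 134, 124 and 152 to 46.03, 51.1 and 53.6 CPM (-1.44 ± 0.15, adjusted p = 0.000391). Six3, which is needed for the anterior forebrain and the eye, was not called (-0.32 ± 0.15, adjusted p = 0.116).

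**Figure D2:**
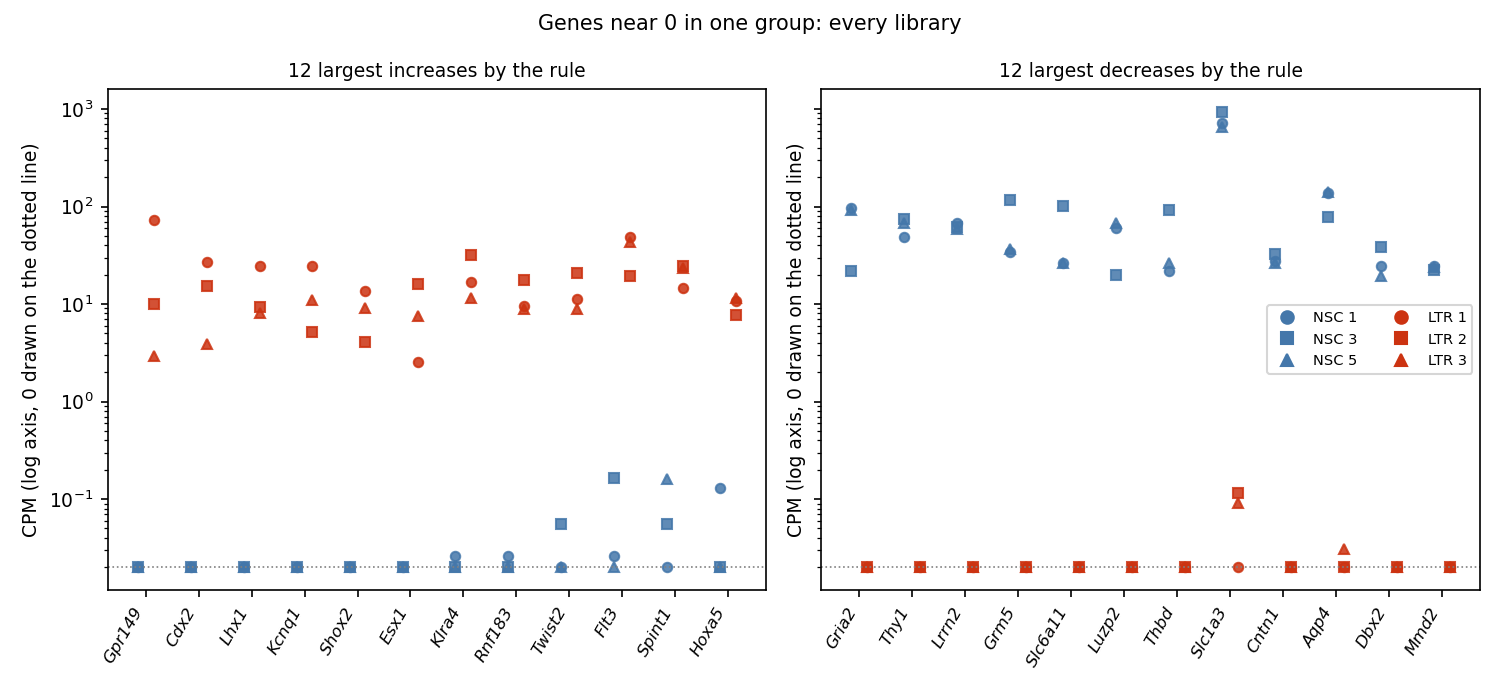
CPM in every library (log axis, values of 0 drawn on the dotted line) for the 12 largest increases (left) and the 12 largest decreases (right) by the rule for named genes. NSC libraries are blue and LTR libraries red. In both panels the 3 libraries of the lower group sit at or near 0, and the LTR libraries differ most for Gpr149.

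Among the largest decreases, 10 of 12 genes had no count in any LTR library. Over all genes tested, 200 had no count in LTR and 35 had none in NSC; with a mean of at least 8 CPM in the other group, these numbers were 22 and 6. Slc1a3, the glutamate transporter GLAST and a marker of astrocyte-like stem cells, had 6 counts over the 3 LTR libraries. It measured 722, 936 and 653 CPM in NSC and 0, 0.116 and 0.0916 CPM in LTR (-13.44 ± 0.55, adjusted p = 2.05e-05). Thy1, a surface glycoprotein of neurons, went from 48.6, 73.9 and 68.02 CPM to 0 (at least 1930-fold lower), and Lrrn2, a leucine-rich repeat membrane protein, from 67.4, 61.3 and 58.6 CPM to 0 (at least 1900-fold). Cntn1, the adhesion molecule contactin 1, went from 27.5, 32.4 and 26.3 CPM to 0 (at least 875-fold). Dbx2, a homeobox factor of neural progenitors (at least 832-fold), and Mmd2 (at least 716-fold) were also at 0 in LTR.

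Genes of synaptic transmission and ion transport fell more often than they rose. Of 41 tested genes for glutamate and GABA receptors, transporters and enzymes, 33 fell and 2 rose. The median log2 difference was -4.76, or -4.36 with the 10 genes at 0 in one group set at their bound. A gene that passed the filter through one group alone had to differ, so these counts and the median support nothing by themselves. Gria2, an AMPA receptor subunit, measured 97.1, 21.8 and 93.05 CPM in NSC and 0 in every LTR library (at least 2150-fold lower), and Grm5, a metabotropic glutamate receptor, 34.1, 116 and 36.3 CPM and 0 (at least 1890-fold). Slc6a11, the GABA transporter GAT3, went from 26.5, 100.3 and 26.6 CPM to 0 (at least 1560-fold). For Gria2 NSC 3 was the lowest stem cell library, and for Grm5 and Slc6a11 it was the highest. Glul, glutamine synthetase, kept a clear level in LTR, at 96.6, 118 and 117 CPM against 432, 421 and 371 CPM in NSC (-1.89 ± 0.17, adjusted p = 0.000193). Slc1a2, the transporter GLT-1, fell to 0.215, 0.308 and 0.305 CPM from 52.7, 91.2 and 51.2 CPM (-7.87 ± 0.37, adjusted p = 2.31e-05).

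Potassium channel genes showed the same direction, with 25 of 42 tested lower and 5 higher (median -2.60). Of the 42, 5 had no count in one group, so the same limit holds for these counts. Kcnj10, the inward rectifier Kir4.1 of astroglia, measured 1071, 879.5 and 861 CPM in NSC and 0.215, 1.08 and 0.793 CPM in LTR (-10.41 ± 0.57, adjusted p = 3.27e-05). Kcnd3, a voltage-gated channel, fell from 161, 166 and 136 to 0.43, 0.732 and 0.397 CPM (-8.23 ± 0.29, adjusted p = 2.05e-05), and Kcnc1 from 217, 303 and 156 to 0.277, 0.0385 and 0.275 CPM (-10.08 ± 0.53, adjusted p = 2.88e-05). Kcnk2, a two-pore background channel, was still at 22.9, 21.3 and 24.2 CPM in LTR, down from 146, 77.7 and 143 CPM (-2.42 ± 0.26, adjusted p = 0.00043). The summed level of the list was 1618 to 1939 CPM in NSC and 154 to 158 CPM in LTR.

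Astrocyte markers moved with both lists. Of 23 listed, 22 were tested, 20 fell and none rose, also at an unadjusted p below 0.05, by DESeq2 and by limma-voom (median -5.26), and 3 of them (Glul, Slc1a2 and Slc1a3) are members of the glutamate and GABA list too. Their summed level was 5237 to 6740 CPM in NSC and 671 to 761 CPM in LTR. Gfap, the intermediate filament of astrocytes and of adult neural stem cells, measured 151, 87.9 and 126 CPM in NSC and 0.215, 1.27 and 0.275 CPM in LTR (-7.75 ± 0.66, adjusted p = 0.000166), and Mlc1, a membrane protein of astrocyte end feet, 442, 631 and 405 and 0.369, 0.77 and 0.855 CPM (-9.53 ± 0.41, adjusted p = 2.05e-05). Gja1, connexin 43, overlapped between the groups and was not called (-0.07 ± 0.27, adjusted p = 0.843). Of 15 tested markers of the oligodendrocyte lineage 9 fell and none rose, also at an unadjusted p below 0.05, by DESeq2 and by limma-voom (median -3.67). Olig1, a factor of oligodendrocyte precursors, fell from 2122, 2331 and 1786 to 50.5, 75.8 and 107 CPM (-4.74 ± 0.34, adjusted p = 8.39e-05), while the myelin gene Mbp was at most 0.391 CPM in any library. Of 20 tested neuronal markers 11 fell and 1 rose (Nefl, a neurofilament chain, 4.59 ± 0.96, adjusted p = 0.00639). The number higher was 4 without NSC 3 and 2 without LTR 2. The part of such cells in the falls of the glutamate, GABA and potassium channel lists was not tested.

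The clustered protocadherins, adhesion proteins that neural cells use to tell themselves from their neighbours, fell nearly as a block. Of 58 listed genes 41 could be tested; 38 fell, none rose, and the median log2 difference was -3.60 (-3.57 with the 3 genes at 0 at their bound). No member was higher at an unadjusted p below 0.05, by DESeq2 or by limma-voom either. All LTR libraries lay below all NSC libraries for 39 of the 41, and for 31.6% of all genes tested. Members that passed the filter through NSC alone had to differ, so these counts describe the members tested. Pcdhga7 measured 14.4, 16.8 and 14.4 CPM in NSC and 0.277, 0.308 and 0.458 CPM in LTR (-5.43 ± 0.33, adjusted p = 5.27e-05). Pcdhgc3, the most abundant member, fell from 237, 262 and 207 to 51.1, 24.6 and 49.4 CPM (-2.50 ± 0.29, adjusted p = 0.000612) and Pcdhgc5 from 71.1, 46.8 and 76.2 to 5.96, 3.2 and 4.7 CPM (-3.80 ± 0.31, adjusted p = 0.000143). Pcdhb16 was not called (-0.20 ± 0.40, adjusted p = 0.699), at 3.21, 2.46 and 3 CPM and 3.6, 2.39 and 1.53 CPM. Within the alpha cluster and within the gamma cluster, members share their last exons, so reads there cannot be assigned to 1 gene. Beta members, such as Pcdhb16, do not share them, but the 41 rows as a set are not independent.

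Most stem cell and glial factors fell. Of 13 Sox genes tested, 11 fell and none rose, also at an unadjusted p below 0.05, by DESeq2 and by limma-voom (median -2.14). Sox1 measured 175, 117 and 167 CPM in NSC and 0.277, 0.462 and 1.53 CPM in LTR (-7.64 ± 0.60, adjusted p = 0.000126), and Sox9, the glial specifier, 223, 166 and 198 and 24.8, 21.6 and 23.9 CPM (-3.06 ± 0.17, adjusted p = 3.92e-05). Sox2, the core factor of neural stem cells, was not called, at 352, 312 and 347 CPM in NSC and 185, 279 and 249 CPM in LTR (-0.50 ± 0.19, adjusted p = 0.0643); it passed the test without LTR 2 and with library totals as scaling. Fabp7, a fatty acid binding protein of radial glia, fell from 2753, 4368 and 2338 to 1.63, 11.8 and 10.7 CPM (-8.62 ± 0.85, adjusted p = 0.000307). Nfia, a factor of gliogenesis, fell from 296, 214 and 294 to 3.78, 4.43 and 5.95 CPM (-5.83 ± 0.27, adjusted p = 2.05e-05). Vim, the intermediate filament vimentin, was not called, at 7296, 6239 and 7360 CPM in NSC and 6294, 11520 and 8158 CPM in LTR (0.31 ± 0.29, adjusted p = 0.41).

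Pax6, a homeobox factor of radial glia, went the other way: it measured 23.7, 18.4 and 27.6 CPM in NSC and 41.9, 45.8 and 43.2 CPM in LTR (0.91 ± 0.19, adjusted p = 0.0065). Of the 10 markers of neural stem cells fixed for the check of the label, 7 fell, Sox2 and Vim were not called and Pax6 rose. All 10 were present in the NSC libraries, where Hes5 was lowest at 6.28 to 7.65 CPM. In LTR, Hes5 and Slc1a3 had 3 and 6 counts over the group.

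Genes of the Notch, Hedgehog and Wnt pathways, which regulate neural stem cells, fell more often than they rose. In the Notch pathway, in which neighbouring cells signal by membrane ligands, 17 of 27 tested members fell and 2 rose (median -1.63). The ligand gene Dll1 fell from 35.6, 28.97 and 28.5 to 1.32, 0.501 and 0.427 CPM (-5.35 ± 0.46, adjusted p = 0.000178) and the receptor gene Notch1 from 512, 435 and 440.3 to 26.9, 29.8 and 39.4 CPM (-3.85 ± 0.21, adjusted p = 3.56e-05). Lfng, a glycosyltransferase that tunes Notch receptors, fell from 224, 270.4 and 183 to 17.4, 23.1 and 20.8 CPM (-3.46 ± 0.21, adjusted p = 5.27e-05). Notch4, the receptor of endothelium, rose from 2.4, 3.03 and 2.39 to 25.9, 19.9 and 28.1 CPM (3.24 ± 0.25, adjusted p = 0.000117). The target Hes1 was not called (0.34 ± 0.32, adjusted p = 0.421). Notch receptors thus moved in both directions, and Notch3 (-5.17 ± 0.34, adjusted p = 6.68e-05) fell with Notch1.

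In the Hedgehog pathway 8 of 15 tested genes fell and none rose, nor did any at an unadjusted p below 0.05, by DESeq2 or by limma-voom (median -1.40). Ptch1, the receptor and a direct target of the pathway, measured 408, 117 and 407 CPM in NSC, where NSC 3 was lowest, and 40.04, 30.2 and 39.1 CPM in LTR (-3.09 ± 0.47, adjusted p = 0.00159). The transducer Gli3 fell from 69.3, 48.1 and 75.5 to 34.02, 17.1 and 21.9 CPM (-1.40 ± 0.29, adjusted p = 0.0065), and the coreceptor Boc fell (-3.66 ± 0.58, adjusted p = 0.00194). Smo, the signal transducer, was not called (-0.44 ± 0.18, adjusted p = 0.0834). In the Wnt pathway 27 of 40 tested genes fell and 7 rose (median -1.33); the number higher was 4 when NSC 1, NSC 5, LTR 1 or LTR 3 was left out. Axin2, a general target of the pathway, fell from 41.2, 24.1 and 45.7 to 1.72, 2 and 3.27 CPM (-3.98 ± 0.37, adjusted p = 0.000231), the ligand Wnt7a from 46.7, 43.9 and 36.6 to 0.154, 0.308 and 0 CPM (-8.15 ± 0.66, adjusted p = 0.000133) and the secreted inhibitor Sfrp1 from 76.8, 61.3 and 77.9 to 0.43, 1.66 and 1.22 CPM (-6.04 ± 0.46, adjusted p = 0.000106).

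Receptor tyrosine kinases and growth factors fell more often than they rose. Of 30 receptor tyrosine kinase genes tested, 15 fell and 4 rose (median -1.15). Fgfr3 measured 116, 54.9 and 91.8 CPM in NSC and 0.43, 0.347 and 0.61 CPM in LTR (-7.54 ± 0.40, adjusted p = 3.07e-05) and Fgfr2 97.3, 69.5 and 106 and 0.154, 0.77 and 0.58 CPM (-7.52 ± 0.50, adjusted p = 6.78e-05), whereas Fgfr1 fell less, from 321, 229 and 312 to 99.3, 85.3 and 88.6 CPM (-1.66 ± 0.18, adjusted p = 0.000482). These are the receptors of the FGF that neural stem cell media contain. Ntrk2, the receptor of BDNF, fell from 381, 367 and 308 CPM to 0, 1.5 and 0.0305 CPM (-9.54 ± 1.17, adjusted p = 0.000689). Axl, Insr and Ryk were not called; Axl measured 302, 169.8 and 332 and 338, 346 and 374 CPM (0.40 ± 0.26, adjusted p = 0.24).

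Of 43 growth factor ligands tested, 18 fell and 9 rose (median -0.94). Ptn, the neurite growth factor pleiotrophin, fell from 440.4, 785 and 393 to 8.08, 15.3 and 6.84 CPM (-5.75 ± 0.46, adjusted p = 0.000127), and its receptor phosphatase Ptprz1 from 1463, 1913 and 1304 to 0.277, 1.54 and 2.23 CPM (-10.18 ± 0.76, adjusted p = 0.000101). Angptl2, a secreted glycoprotein of the angiopoietin-like family, rose from 29.5, 45.6 and 27.2 to 124, 139 and 145 CPM (1.996 ± 0.23, adjusted p = 0.000522), and Pgf, placental growth factor, from 0.652, 0.826 and 0.663 to 7.01, 8.82 and 4.55 CPM (3.24 ± 0.39, adjusted p = 0.00063). Chemokines, cytokines and their receptors were mixed, with 9 of 38 tested genes higher and 10 lower (median -0.05); the number higher was 5 without NSC 1, LTR 2 or LTR 3. Spp1, osteopontin, rose from 232, 351 and 207 to 1893, 2676 and 2485 CPM (3.16 ± 0.29, adjusted p = 0.000208). Mif, macrophage migration inhibitory factor, rose from 105, 168 and 105 to 520.0, 594 and 519 CPM (2.11 ± 0.23, adjusted p = 0.000479). The receptor chains that signal for LIF and oncostatin M fell: Lifr (-3.06 ± 0.25, adjusted p = 0.000155), Osmr (-7.09 ± 0.59, adjusted p = 0.000162) and Il6st (-1.53 ± 0.19, adjusted p = 0.000687).

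Regulators and effectors around Ras showed no common direction. Of 31 tested Ras genes and regulators, 6 rose and 10 fell (median -0.05). Gab1, a docking protein below receptors, fell from 109.8, 63.7 and 112 to 7.5, 9.21 and 7.69 CPM (-3.55 ± 0.27, adjusted p = 0.000102). Rasgrf1, an exchange factor that loads Ras with GTP, fell from 7.25, 1.87 and 8.56 to 0, 0.231 and 0.122 CPM (-5.66 ± 0.99, adjusted p = 0.0029). Rasgrp1, another exchange factor, had 257 counts over NSC and 1 over LTR, a ratio of 180 (exact 95% counting interval 32.0 to 7120). The GTPase activating protein Rasa3 fell from 189, 163 and 182 to 61.95, 58.4 and 63.7 CPM (-1.54 ± 0.14, adjusted p = 0.000228). Shc1, an adaptor, rose from 97.8, 71.5 and 110.0 to 175, 154 and 162 CPM (0.81 ± 0.19, adjusted p = 0.00991). Among 27 kinases of the MAPK cascades 5 rose and 7 fell. Mapk11 (1.99 ± 0.18, adjusted p = 0.000194) and Mapk12 (2.28 ± 0.20, adjusted p = 0.000201), both p38 kinases, rose, and Mapk10, the neural JNK3, fell from 49.7, 44.5 and 45.4 to 4.24, 2.12 and 3.39 CPM (-3.83 ± 0.28, adjusted p = 9.82e-05). The 7 decreases became 3 without NSC 1 and 4 without NSC 5. In the PI3K list 3 of 31 genes rose and 8 fell. Irs2, an insulin receptor substrate, fell (-1.84 ± 0.15, adjusted p = 0.000127), and Eif4ebp1, a translation repressor that mTOR inactivates, rose from 61.03, 65.8 and 69.5 to 249, 263 and 166 CPM (1.79 ± 0.21, adjusted p = 0.000572). The number higher was 5 without LTR 2.

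AP-1 and immediate early factors moved in both directions. Of 22 tested, 7 rose and 3 fell (median 0.36). Fosl1, the FOS family member that lasting Ras signalling induces, rose from 15.9, 29.99 and 13.98 to 64.7, 99.1 and 106 CPM (2.17 ± 0.34, adjusted p = 0.00185). Myc, a transcription factor of growth and ribosome production, rose from 36.9, 35.3 and 36.9 to 95.6, 110.4 and 108 CPM (1.52 ± 0.14, adjusted p = 0.000227). Fos measured 35.6, 343 and 25.7 CPM in NSC, with NSC 3 far above the other 2, and 1.17, 1.16 and 1.31 CPM in LTR (-6.79 ± 1.16, adjusted p = 0.00268); DESeq2 did not call it. The number higher depended on the libraries: it was 3 without NSC 1, 4 without LTR 3 and 13 without NSC 3.

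DNA replication genes rose together. Of 40 tested, 32 rose and none fell by edgeR, DESeq2 or limma-voom (2 were lower at an unadjusted p below 0.05), and the median log2 difference was 0.79 (per library 0.84, 0.79 and 0.85 in LTR 1, 2 and 3). Leaving out any 1 library kept the number within 1.5 times; in the fit of all 9 libraries it was 10. Prim1, the primase subunit, measured 39.8, 44.9 and 42.2 CPM in NSC and 167, 123 and 179 CPM in LTR (1.89 ± 0.18, adjusted p = 0.000277). Cdc45, part of the replicative helicase, rose from 37.5, 38.1 and 37.5 to 104, 97.99 and 99.8 CPM (1.41 ± 0.13, adjusted p = 0.000247), with an SD of 2.83 CPM across LTR. Orc6 of the origin recognition complex rose from 62.3, 67.8 and 60.8 to 129.9, 157 and 153 CPM (1.20 ± 0.15, adjusted p = 0.000685). The other 8 were not called, among them Rrm2 and Pcna. Rrm2, a ribonucleotide reductase subunit, measured 358, 619.8 and 400.5 CPM in NSC and 292, 313 and 329 CPM in LTR (-0.56 ± 0.23, adjusted p = 0.0829); it fell past the test with library totals as scaling and with the filter of 10 CPM in 3 libraries. Pcna, the sliding clamp, measured 196, 372 and 215 and 367, 383 and 409 CPM (0.57 ± 0.26, adjusted p = 0.111). Of 40 mitosis genes 28 rose and none fell, also at an unadjusted p below 0.05, by DESeq2 and by limma-voom (median 0.76), but 18 rose without NSC 1 and 9 in the fit of all 9 libraries. Cenpa, the centromeric histone, rose from 56.6, 88.6 and 70.6 to 218, 329.7 and 248 CPM (1.88 ± 0.24, adjusted p = 0.00075), while Mki67, the usual proliferation marker, was not called (-0.14 ± 0.26, adjusted p = 0.678).

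E2F factors drive replication genes and are released when RB proteins are bound by large T antigen, so the promoters of this list were searched for the E2F words TTTCGCGC, TTTGGCGC and TTTCCCGC on both strands, overlapping matches counted separately. RefSeq (GRCm38.p6) promoters, 250 bases before to 50 after the first start listed, were matched by symbol for 31 of the 40 genes. A word was present in 11 of the 31 promoters (35.5%), against 376 of the 10716 tested genes with a promoter (3.51%) and 515 of all 27025 (1.91%). For the 24 of the list that rose it was present in 9 (37.5%), a share like that of the whole list. Among mitosis genes it was present in 1 of 33 (3.03%). The 6 promoter stretches below are shown because they hold a word upstream of or at the start of a gene that rose, with the words in capitals. They lie at chr11:98907991-98908040 (plus strand), chr8:75109334-75109383 (plus), chr1:128359736-128359830 (minus), chr5:138172019-138172068 (minus), chr4:108579404-108579453 (plus) and chr5:151651197-151651248 (minus), each printed 5′ to 3′ on the strand of its gene.
Cdc6: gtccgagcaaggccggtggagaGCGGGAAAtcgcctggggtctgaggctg
Mcm5: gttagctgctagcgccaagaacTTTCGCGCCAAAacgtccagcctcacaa
Mcm6: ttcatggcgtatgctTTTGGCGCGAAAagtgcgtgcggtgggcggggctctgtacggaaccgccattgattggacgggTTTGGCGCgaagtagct
Mcm7: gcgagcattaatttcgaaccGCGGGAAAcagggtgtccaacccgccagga
Orc1: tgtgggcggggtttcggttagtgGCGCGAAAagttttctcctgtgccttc
Rfc3: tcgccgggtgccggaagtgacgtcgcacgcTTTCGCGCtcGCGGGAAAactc
In Mcm5 and Mcm6 the words overlap on opposite strands, and Mcm6 holds another nearer the start. A match is a description of letters and not of binding.

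Apart from Mcm6 and Mcm7, these genes were named for their promoters after their values were seen. Cdc6, which loads the helicase at origins, measured 38.5, 37.6 and 37.1 CPM in NSC and 69.4, 86.4 and 85.7 CPM in LTR (1.09 ± 0.15, adjusted p = 0.00115). Orc1, the largest origin recognition subunit, measured 11.9, 8.24 and 14.6 and 21.2, 25 and 31.1 CPM (1.16 ± 0.27, adjusted p = 0.0103); its call was lost without LTR 3. The helicase subunit genes Mcm5 (0.67 ± 0.15, adjusted p = 0.00789), Mcm6 (0.66 ± 0.16, adjusted p = 0.0129) and Mcm7 (0.90 ± 0.19, adjusted p = 0.00598) and the clamp loader gene Rfc3 (0.64 ± 0.13, adjusted p = 0.00566) rose by less than 2-fold with no overlap between groups. The call of Mcm5 was lost without NSC 1 and that of Mcm6 without NSC 1 or NSC 5, and none of these 4 was called in the fit of all 9 libraries. The RB and E2F factors themselves showed no common direction: of 19 tested, 5 rose, 2 fell and 12 were not called (median -0.01). Among those that rose, E2f1 went from 41.5, 42.6 and 41.2 to 90.6, 104 and 85.3 CPM (1.16 ± 0.14, adjusted p = 0.000742) and E2f4 from 37.2, 42.2 and 36.1 to 83.5, 91.9 and 93.6 CPM (1.22 ± 0.15, adjusted p = 0.000639).

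Ribosomal protein genes were the most abundant group to rise. Of 81 tested, 62 rose and none fell, also at an unadjusted p below 0.05, by DESeq2 and by limma-voom, with a median log2 difference of 1.07. Together they held 21618 to 39506 CPM in NSC, where NSC 3 was highest, and 49466 to 83561 CPM in LTR, where LTR 2 was highest. Per library the median difference from the NSC mean was -0.28, 0.44 and -0.29 in NSC 1, 3 and 5 and 0.81, 1.53 and 0.83 in LTR 1, 2 and 3, so the groups did not overlap but each had 1 high library. The number called was 27 without NSC 1, 28 without NSC 5, 40 without LTR 2 and 35 in the fit of all 9 libraries. Rplp0, the stalk protein, measured 838, 1523 and 836 CPM in NSC and 2946, 3868 and 2962 CPM in LTR (1.61 ± 0.30, adjusted p = 0.00412), and Rps15 339, 543 and 344 and 1168, 2161 and 1255 CPM (1.90 ± 0.32, adjusted p = 0.00259). Npm1 and Ncl, the nucleolar proteins nucleophosmin and nucleolin that assist ribosome assembly, rose from 698, 1030 and 754 to 2261, 4367 and 2866 CPM (1.94 ± 0.31, adjusted p = 0.00204) and from 889.5, 1124 and 949 to 1743, 2497 and 1917 CPM (1.06 ± 0.22, adjusted p = 0.00652). Ribosomal protein genes have many processed pseudogenes, so reads can be split between copies: Rpl29 measured 6.65, 373 and 5.04 CPM in NSC 1, 3 and 5. Among 498 processed pseudogenes tested, 124 rose and 15 fell (median 0.84).

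mRNAs of ribosomal proteins begin with a run of pyrimidines through which mTOR signalling controls their translation. A run of at least 6 C or T beginning within 5 bases of the RefSeq start was found for 22 of 60 ribosomal protein genes with a promoter entry (36.7%) and for 3268 of all 27025 genes (12.1%). Among the 46 of the list that rose it was found for 16 (34.8%), a share like that of the whole list. The 3 starts below show this run in capitals in genes that rose; they cover 20 bases before and 25 from the start on, at chr7:45128721-45128765 (minus strand), chr7:109519175-109519219 (plus) and chr14:24490658-24490702 (plus).
Rpl13a: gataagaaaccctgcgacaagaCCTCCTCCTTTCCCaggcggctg
Rpl27a: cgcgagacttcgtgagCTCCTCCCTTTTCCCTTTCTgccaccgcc
Rps24: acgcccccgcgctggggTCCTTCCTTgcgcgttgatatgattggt
Rpl27a measured 144, 235 and 146 CPM in NSC and 382, 587 and 417 CPM in LTR (1.40 ± 0.27, adjusted p = 0.00434), Rps24 383, 646 and 419.9 and 964, 1615 and 1017 CPM (1.31 ± 0.30, adjusted p = 0.00893), and Rpl13a 668, 1184 and 689.8 and 1580, 3594 and 1830 CPM (1.46 ± 0.39, adjusted p = 0.0167). The call of Rpl13a was lost without NSC 1 or NSC 5, and Rps24 was named for its start after its values were seen.

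Amino acid metabolism under Atf4, the transcription factor of the stress response to missing amino acids, was represented by more rises than falls. Of 40 tested genes of the Atf4 response, serine synthesis and one-carbon metabolism, 19 rose and 4 fell (median 0.79). LTR 1 led, with a median difference from the NSC mean of 1.30 against 0.34 in LTR 2 and 0.41 in LTR 3. Asns, asparagine synthetase, measured 59.4, 57.5 and 52.2 CPM in NSC and 506, 342 and 212 CPM in LTR (2.65 ± 0.31, adjusted p = 0.000612). Shmt2, the mitochondrial enzyme that takes one-carbon units from serine, rose from 102, 148 and 97.5 to 834, 439.6 and 427 CPM (2.29 ± 0.32, adjusted p = 0.0012), and Phgdh, the first enzyme of serine synthesis, from 184, 243 and 185 to 542, 595 and 362 CPM (1.29 ± 0.24, adjusted p = 0.00358). Trib3, a pseudokinase induced by Atf4, rose from 1.88, 1.56 and 1.8 to 151, 30.2 and 24.3 CPM (5.29 ± 0.78, adjusted p = 0.00145). Chac1 (4.14 ± 0.79, adjusted p = 0.00442) and Nupr1 (2.01 ± 0.46, adjusted p = 0.00899), also induced in amino acid stress and named for their promoters after their values were seen, rose. Aldh1l1, a folate enzyme that marks astrocytes, fell from 889, 1468 and 772 to 55.3, 76.6 and 39.5 CPM (-4.19 ± 0.37, adjusted p = 0.000191). The number lower was 7 without LTR 1.

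The composite C/EBP-ATF site to which Atf4 binds was searched as TGATGNAA on both strands. It was present in 7 of 36 promoters of this list (19.4%), in 230 of 10716 tested genes (2.15%) and in 1096 of all 27025 (4.06%). The 4 stretches shown hold it (capitals) in genes that rose, at chr6:7693210-7693259 (minus strand), chr2:119351027-119351076 (plus), chr7:126625556-126625605 (minus) and chr2:152344036-152344085 (minus).
Asns: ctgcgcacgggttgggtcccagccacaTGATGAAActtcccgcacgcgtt
Chac1: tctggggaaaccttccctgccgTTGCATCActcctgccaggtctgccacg
Nupr1: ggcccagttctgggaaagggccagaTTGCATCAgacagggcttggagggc
Trib3: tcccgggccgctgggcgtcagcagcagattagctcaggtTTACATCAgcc
Of the other 3 promoters with a match, Pycr1 rose (1.31 ± 0.40, adjusted p = 0.0304) but lost its call without LTR 1 or any 1 NSC library, Slc1a4 fell (-1.74 ± 0.36, adjusted p = 0.00639) and Slc7a11 was not called (0.10 ± 0.58, adjusted p = 0.894).

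**Figure D3:**
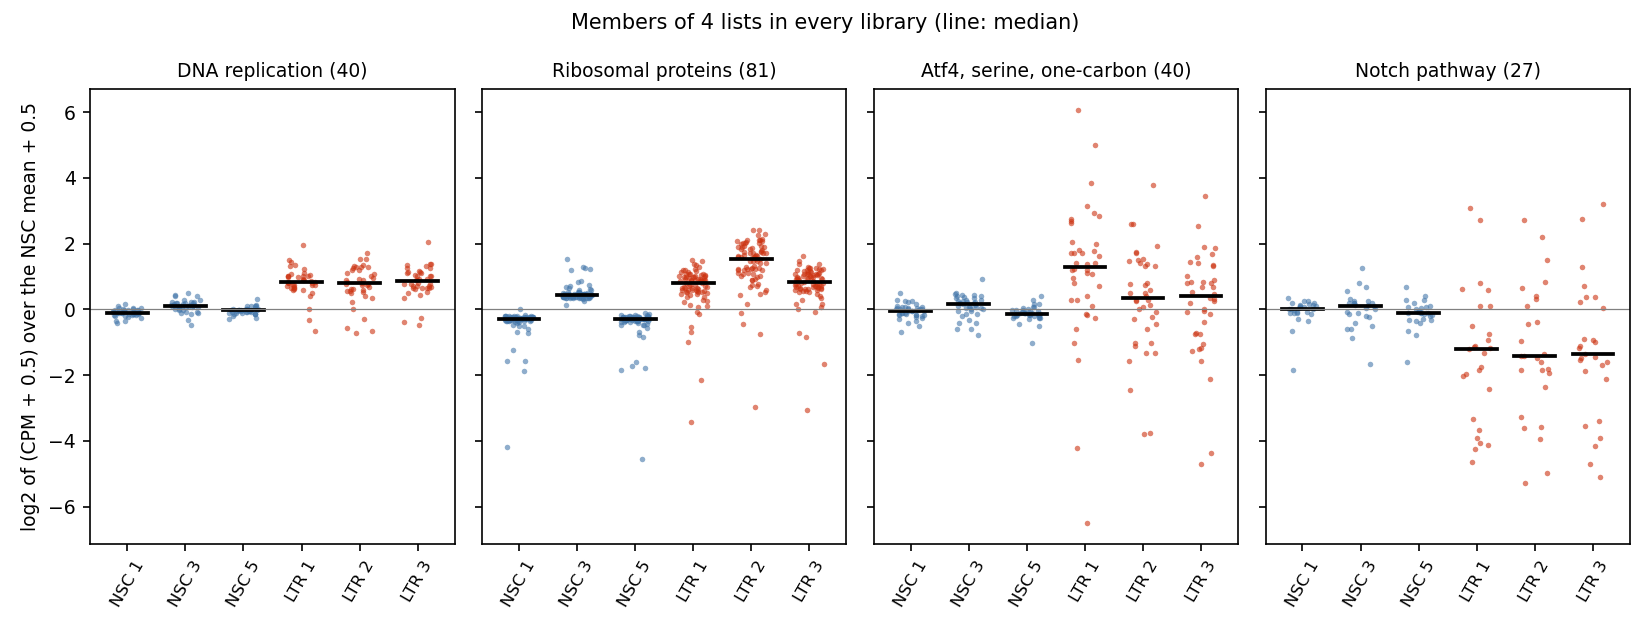
Each point is 1 gene of a list in 1 library, as the log2 ratio of its CPM to the mean of the NSC libraries (0.5 added to both), with the number of genes in brackets and the median as a line. Medians of ribosomal protein genes were 0.81 to 1.53 in LTR, of Atf4-related genes 0.34 to 1.30, of replication genes 0.79 to 0.85 and of Notch genes -1.22 to -1.41.

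Glycolysis genes differed between isoforms. Of 40 tested, 14 rose and 8 fell (median 0.39). Ldha, the lactate dehydrogenase chain of glycolytic cells, rose from 496, 722 and 502 to 1325, 1685 and 1665 CPM (1.44 ± 0.23, adjusted p = 0.002) and Ldhb fell from 233, 249 and 210.5 to 50.3, 45.9 and 58.3 CPM (-2.16 ± 0.17, adjusted p = 0.000107). Aldoc, the brain aldolase, fell from 237, 257 and 230.0 to 22.1, 25.2 and 19.2 CPM (-3.44 ± 0.17, adjusted p = 2.42e-05), and Aldoa was not called (0.57 ± 0.26, adjusted p = 0.109). Pfkl, a phosphofructokinase, rose from 66.7, 81.1 and 79.05 to 219.8, 262 and 262 CPM (1.71 ± 0.16, adjusted p = 0.000255), and Tpi1 rose (1.20 ± 0.26, adjusted p = 0.00699). Epas1, the hypoxia factor HIF2 alpha, fell from 110.0, 56.04 and 131 to 2.03, 3.66 and 2.99 CPM (-5.10 ± 0.40, adjusted p = 0.000125). Ckb, brain creatine kinase, fell from 3966, 8793 and 3420 to 295, 566 and 439 CPM (-3.64 ± 0.46, adjusted p = 0.000782). Of 75 nuclear genes of the respiratory chain 8 rose and 1 fell, fewer than among all genes; leaving out NSC 3 gave 26 higher, and leaving out NSC 1, NSC 5 or LTR 2 gave 2. None of 9 mRNAs encoded by mitochondrial DNA was called by edgeR, DESeq2 or limma-voom, and none had an unadjusted p below 0.05.

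Among lipid genes, desaturases and a cholesterol exporter fell. Scd2 and Scd1, stearoyl-CoA desaturases, fell from 5307, 6184 and 4791 to 2034, 1956 and 2195 CPM (-1.40 ± 0.22, adjusted p = 0.00189) and from 1662, 1877 and 1556 to 509.8, 430.3 and 501 CPM (-1.82 ± 0.19, adjusted p = 0.000373). Abca1, the cholesterol exporter, fell from 648, 290.5 and 594 to 29.2, 22.3 and 21.4 CPM (-4.40 ± 0.35, adjusted p = 0.000131), Apoe, the apolipoprotein of astroglia, from 103, 118 and 113 to 6.3, 19.4 and 9.46 CPM (-3.25 ± 0.40, adjusted p = 0.000704) and Srebf1, the lipogenic factor, from 639, 914 and 560.0 to 178, 214 and 182 CPM (-1.88 ± 0.23, adjusted p = 0.000685). Fasn was not called (0.20 ± 0.25, adjusted p = 0.542). Over the list of 41 genes for cholesterol and fatty acid synthesis 12 rose and 9 fell, and only 4 rose without NSC 1 or NSC 5. Antioxidant genes of the Nrf2 list fell more often than they rose, 20 against 5 of 42 (median -0.58). Gstm1, a glutathione transferase, measured 375, 303 and 378 CPM in NSC and 29.1, 31.7 and 32.6 CPM in LTR (-3.50 ± 0.17, adjusted p = 2.42e-05), and Ephx1, epoxide hydrolase, 322, 372 and 336 and 18.04, 9.21 and 11.5 CPM (-4.73 ± 0.29, adjusted p = 5.27e-05); the number higher was 3 without NSC 1 or LTR 3.

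Signals of the TGF-beta family and protein folding genes were mixed. Of 47 tested genes of the TGF-beta and BMP pathway 18 fell and 6 rose (median -0.08); the number higher was 3 without NSC 5 or LTR 3. Tgfb2, a ligand, fell from 57.5, 35.7 and 64.6 to 6.79, 8.59 and 7.11 CPM (-2.81 ± 0.27, adjusted p = 0.000251), and Id2, a target that holds back differentiation, from 227, 176 and 189.7 to 75.9, 48.4 and 68.3 CPM (-1.62 ± 0.21, adjusted p = 0.00086). Grem1, a secreted BMP inhibitor, rose from 0.104, 0.587 and 0.0265 to 15.7, 35.01 and 27.9 CPM (6.64 ± 0.85, adjusted p = 0.000809). Of 42 chaperone genes 12 rose and 9 fell; 4 rose without NSC 1 or NSC 5 and 6 without LTR 3, and 4 fell without LTR 3. Hsf1, the heat shock factor, rose from 28.3, 31.4 and 26.3 to 62.3, 58.9 and 61.1 CPM (1.08 ± 0.15, adjusted p = 0.00108).

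Extracellular matrix genes fell more often than they rose in each family. Of 42 proteoglycans, tenascins and other matrix genes tested, 28 fell and 2 rose (median -2.52). Ncan, the brain proteoglycan neurocan, fell from 915, 1147 and 801 to 7.31, 10.1 and 14.5 CPM (-6.49 ± 0.35, adjusted p = 3.07e-05), and Sparc, a secreted collagen-binding protein, from 2430, 1833 and 2382 to 793, 1194 and 1092 CPM (-1.11 ± 0.24, adjusted p = 0.00709). Tnc, tenascin C of the stem cell niche, was not called (-0.69 ± 0.34, adjusted p = 0.135) and measured 464, 1091 and 1140 CPM in LTR. Of 30 collagen genes tested 16 fell and 2 rose (median -1.72). Col11a1 fell from 269, 164 and 281 to 0.215, 1.46 and 0.214 CPM (-8.63 ± 0.76, adjusted p = 0.00019), Col5a1 from 314, 282 and 296 to 135, 105 and 108 CPM (-1.36 ± 0.17, adjusted p = 0.00067), and Col1a1 from 479.7, 16.8 and 614 to 3.32, 3.89 and 1.92 CPM (-6.93 ± 1.25, adjusted p = 0.00332). Col3a1 rose from 1.72, 0.184 and 1.14 to 158, 30.7 and 16.7 CPM (6.11 ± 1.13, adjusted p = 0.00377), most of it in LTR 1. Col4a1 and Col4a2, the basement membrane collagens, were not called (0.34 ± 0.46, adjusted p = 0.572 and 0.50 ± 0.49, adjusted p = 0.43).

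Markers of mural cells and fibroblasts, some of them collagens, fell more often than they rose. Of 20 listed, 9 had too few counts, 3 of 11 tested rose and 6 fell, and their summed level was 2110, 405 and 2615 CPM in NSC 1, 3 and 5 and 54.3 to 185 CPM in LTR. Acta2 and Tagln, actin-associated genes of contractile cells, measured 784, 168 and 908 and 463, 97.2 and 588 CPM in NSC and 0.215, 2.46 and 0.244 and 1.04, 4.01 and 1.22 CPM in LTR (-9.37 ± 1.21, adjusted p = 0.000841 and -7.54 ± 0.91, adjusted p = 0.000655). Of the defining markers, Rgs5 of pericytes had 42 counts over all NSC libraries and Dcn of fibroblasts 10. Pdgfrb, another defining marker, fell from 12.85, 2.72 and 14.85 CPM in NSC to 0.338, 1.5 and 0.519 CPM in LTR. Col1a1 and Col3a1 are defining markers of these cells too, so the marker and collagen results are not independent. NSC 3 was the lowest stem cell library for Col1a1, Acta2 and Tagln, so the NSC cultures themselves differed in these genes. The part of such cells in the collagen result was not tested.

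Receptors for the matrix fell as well. Of 37 integrins and laminins tested 19 fell and 6 rose (median -1.17); the number higher was 3 without NSC 1. Itgb8, the integrin that activates TGF-beta on neural cells, fell from 357, 225 and 345 to 11.1, 7.16 and 13.9 CPM (-4.85 ± 0.33, adjusted p = 7.27e-05) and Itgav, its partner, from 713, 749 and 692 to 203, 113 and 166 CPM (-2.16 ± 0.24, adjusted p = 0.000492). Lamb1, a laminin chain, rose from 181, 133 and 165 to 471, 424 and 522 CPM (1.57 ± 0.18, adjusted p = 0.000612), and Itgb1 was not called (-0.39 ± 0.19, adjusted p = 0.133). Of 48 proteases and inhibitors 26 fell and 6 rose (median -0.93). Mmp14, a membrane-bound collagenase, fell from 371, 426 and 413 to 36.5, 42.8 and 41.2 CPM (-3.33 ± 0.17, adjusted p = 2.42e-05), and Mmp15 from 259.8, 386 and 226 to 5.16, 5.16 and 6.68 CPM (-5.68 ± 0.28, adjusted p = 2.42e-05). Lysosomal cathepsins went the other way: Ctsl rose from 244, 196 and 242 to 1332, 1288 and 932 CPM (2.38 ± 0.22, adjusted p = 0.000226) and Ctsb from 286, 307 and 293 to 519, 584 and 529 CPM (0.88 ± 0.15, adjusted p = 0.00299), while Ctsd was not called (-0.39 ± 0.27, adjusted p = 0.273).

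Cadherins and junction genes were divided, with 17 of 38 tested lower and 11 higher (median -0.11). Cdh2, N-cadherin, fell from 817, 725 and 822 to 256, 219.7 and 234 CPM (-1.74 ± 0.17, adjusted p = 0.000271), and Cdh11 from 151, 78.6 and 157 to 0.0922, 0.154 and 0.0305 CPM (-10.46 ± 0.51, adjusted p = 2.34e-05). Cdh19 went from 23.1, 16.4 and 17.1 CPM to 0 in LTR (at least 574-fold lower). Zeb1, a repressor of epithelial genes in neural progenitors, fell from 256, 278 and 221 to 74.5, 58.97 and 79.8 CPM (-1.82 ± 0.18, adjusted p = 0.000315), and Gjc1, connexin 45, rose from 13.9, 12.9 and 15.6 to 59.6, 62.3 and 61.8 CPM (2.11 ± 0.16, adjusted p = 0.000102). Genes of Yap and Tead signalling, which reads cell shape and contact, fell in 17 of 33 cases and rose in 5 (median -0.77). F3, tissue factor, fell from 220.4, 172 and 217 to 17.5, 12.1 and 11.99 CPM (-3.87 ± 0.23, adjusted p = 4.16e-05) and Cyr61, a matricellular target of Yap, from 334, 185 and 417 to 30.7, 97.6 and 70.2 CPM (-2.24 ± 0.46, adjusted p = 0.0059), but another target, Ankrd1, rose from 0.0261, 0 and 0.159 to 8.91, 6.89 and 5.92 CPM (6.92 ± 0.89, adjusted p = 0.0008). S100a4, a calcium-binding protein of motile cells, rose from 42.02, 21.04 and 60.3 to 534, 818 and 366 CPM (3.80 ± 0.47, adjusted p = 0.000693).

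Innate immune genes were called about as often as all genes, with more falls than rises, while the MHC class I chains B2m and H2-D1 rose. Of 49 interferon-stimulated and RNA-sensing genes 17 fell and 5 rose (median -0.33). Together 44.9% were called, against 46.5% of all genes tested. Leaving out NSC 1 left 2 higher, and leaving out NSC 5 or LTR 3 left 3. Gbp7, a guanylate-binding protein, fell from 11.2, 21.2 and 11.5 to 1.01, 0.732 and 0.915 CPM (-4.04 ± 0.38, adjusted p = 0.000248), and Ddx58, the RNA sensor RIG-I, from 16.9, 11.1 and 17.6 to 4.42, 2.31 and 2.29 CPM (-2.33 ± 0.37, adjusted p = 0.00188). In the MHC class I list of 24 genes 5 rose and 7 fell; 3 rose without NSC 1. B2m, the light chain, rose from 110.5, 89.96 and 109 to 323, 369.6 and 261 CPM (1.62 ± 0.19, adjusted p = 0.00058) and H2-D1, a heavy chain, from 37.1, 29.5 and 36.6 to 159, 112 and 76.5 CPM (1.75 ± 0.27, adjusted p = 0.00184), whereas the peptide transporter genes Tap1 (-2.66 ± 0.37, adjusted p = 0.00112) and Tap2 (-3.31 ± 0.36, adjusted p = 0.00047) fell. H2-K1 was not called (0.23 ± 0.19, adjusted p = 0.365). H2 genes are near-identical to each other, so their counts are uncertain.

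Chromatin regulators as a group were near the background, with 11 of 50 higher and 14 lower (median 0.03); the number higher was 6 without NSC 5 or LTR 3 and 7 without NSC 1. Dnmt3a, a DNA methyltransferase for new methylation, fell from 111, 139 and 107 to 16.1, 15.4 and 12.97 CPM (-3.005 ± 0.18, adjusted p = 5.20e-05), and Dnmt1, which maintains methylation, was not called (0.24 ± 0.21, adjusted p = 0.384). Eed, a subunit of the polycomb complex PRC2, rose (1.09 ± 0.15, adjusted p = 0.00117), as did Hdac2 (1.11 ± 0.17, adjusted p = 0.00178). Imprinted genes fell in 22 of 41 cases and rose in 2 (median -0.83). Mest fell from 1190, 1414 and 1044 to 64.7, 101 and 96.3 CPM (-3.80 ± 0.26, adjusted p = 7.23e-05) and Peg10 from 166, 89.5 and 225 to 24.6, 32.4 and 24.7 CPM (-2.56 ± 0.34, adjusted p = 0.000892). Rian, a noncoding RNA of the Dlk1 region, fell from 31.4, 8 and 39.5 to 0.0307, 0.193 and 0.122 CPM (-7.84 ± 0.84, adjusted p = 0.000406). Of the oncofetal genes, Hmga2, a chromatin protein of embryonic growth, rose from 116, 207 and 94.6 to 716, 505 and 798 CPM (2.28 ± 0.34, adjusted p = 0.00148) and Igf2bp2, an RNA-binding protein, from 36.2, 38.5 and 27.3 to 91.97, 81.5 and 103 CPM (1.44 ± 0.19, adjusted p = 0.00086); 4 of 11 in that list rose and 4 fell.

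**Figure D4:**
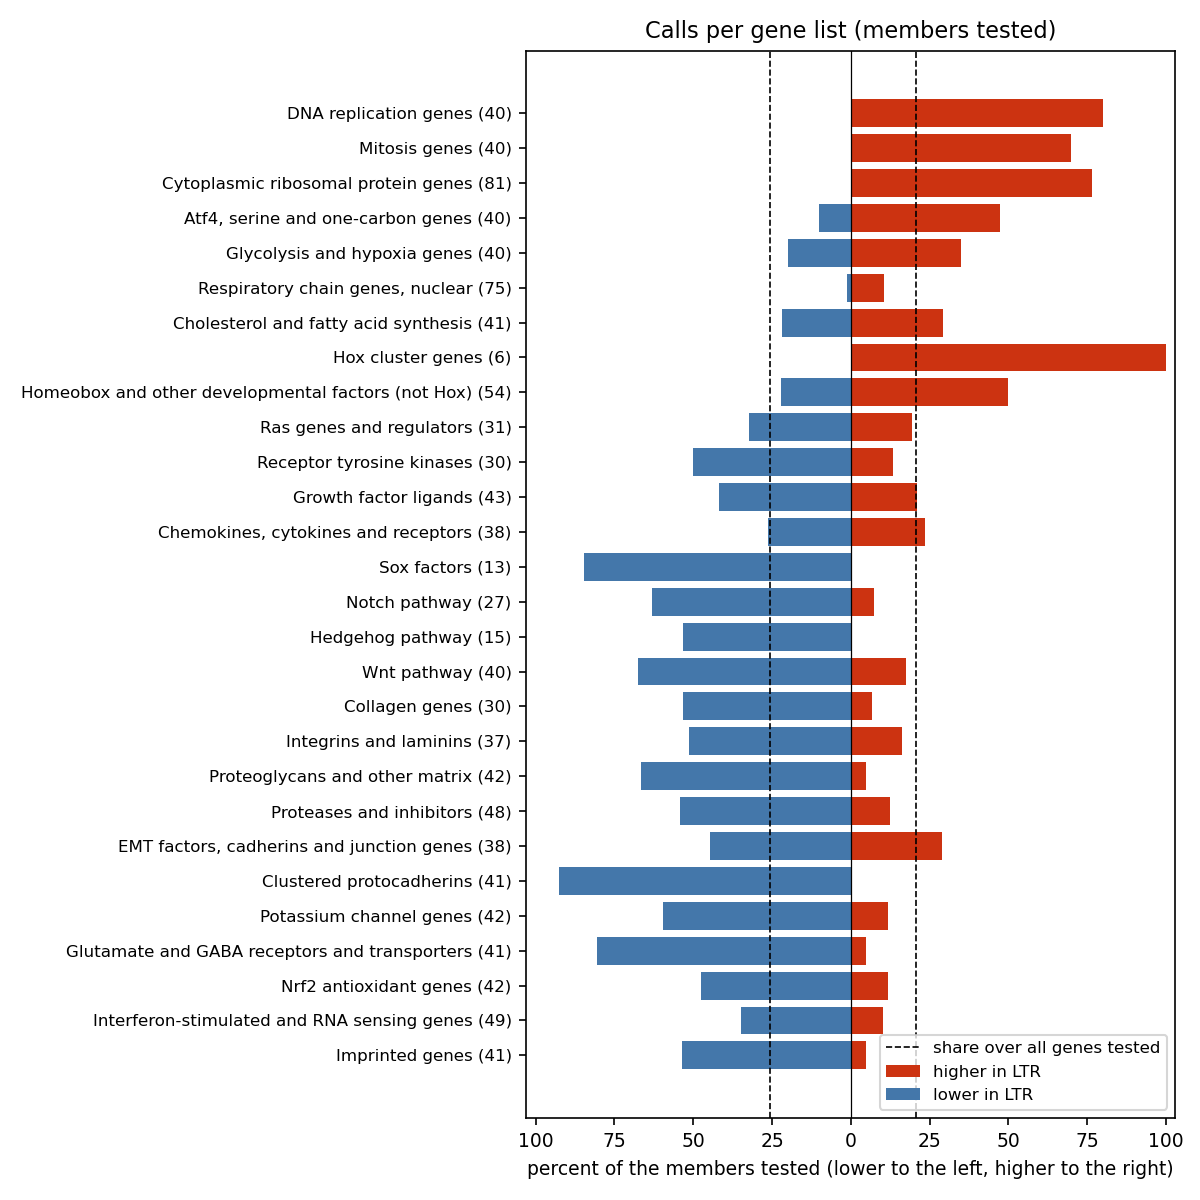
Bars give the percent of tested members (number in brackets) that were called higher (red, to the right) or lower (blue, to the left) in LTR, by edgeR at an adjusted p below 0.05. Dashed lines mark the shares over all genes, 20.8% higher and 25.7% lower; replication, mitosis and ribosomal protein genes lie beyond the first and protocadherins, Sox factors and glutamate and GABA genes beyond the second.

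Defining markers of microglia were near 0 in both groups. Of the 6 defining markers of microglia, none had more than 0.753 CPM in any library, and Itgam, Cx3cr1, C1qa and Tyrobp had no count in LTR. In the microglia list 4 of 7 tested members rose (1 without NSC 1, 2 without NSC 5 or LTR 3) and 2 fell. Endothelial markers summed to 27.3 to 51.0 CPM in NSC and 62.7 to 119 CPM in LTR, with 4 of 11 higher (2 without NSC 1) and 2 lower. Of the defining endothelial markers, Cldn5 had no count in any library and Pecam1 at most 0.398 CPM. Cdh5 rose, from 18 counts over NSC to 91 over LTR, and Kdr, with 255 and 70 counts, was not called. Flt1, a VEGF receptor, rose from 4.2, 6.74 and 2.33 to 29.4, 31.01 and 36.7 CPM (2.87 ± 0.38, adjusted p = 0.000967). In the choroid plexus list 2 of 4 tested genes rose and 2 fell, and Ttr had 20 counts in NSC and 1 in LTR. Xist and the 4 Y-linked genes followed were detected in every library, so each group contained transcripts of both kinds.

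Genes of chromosome 10 stood above those of the other chromosomes in LTR. Over its 529 genes with a mean of at least 5 CPM, the median log2 difference was 0.42, and 41.4% were higher and 14.4% lower. Per library, the median against the NSC mean was 0.55 in LTR 1, 0.20 in LTR 2 and 0.43 in LTR 3, against -0.05, 0.06 and -0.04 in NSC 1, 3 and 5. Chromosome 19 came next (0.23), and the other chromosomes lay between -0.07 and 0.16. In 10 successive windows of 50 genes along chromosome 10 the median log2 difference between the groups was 0.16 to 0.66, positive in each. It was not positive in every library: LTR 2 was at -0.12 against the NSC mean in window 4 and at -0.0 in window 9. Single windows elsewhere reached similar group values, such as 0.55 on chromosome 19 and 0.47 on chromosome 3. The chromosome 10 value was 0.37 to 0.43 under the 3 other scalings and 0.30 to 0.48 with 1 library left out. Cdk4 (chromosome 10, 127063534 to 127067920), a kinase that phosphorylates RB, rose from 329, 463 and 321 to 1052, 944 and 1043 CPM (1.45 ± 0.21, adjusted p = 0.00128). Hmga2 lies on the same chromosome (120361275 to 120476469), as does Mdm2 (117688875 to 117710758), the p53 ubiquitin ligase, which was not called (0.48 ± 0.24, adjusted p = 0.146). On the scale of the 9-library fit the chromosome 10 median was 0.42, 0.03 and 0.33 in NF1 1, 2 and 3. Copy number was not tested.

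**Figure D5:**
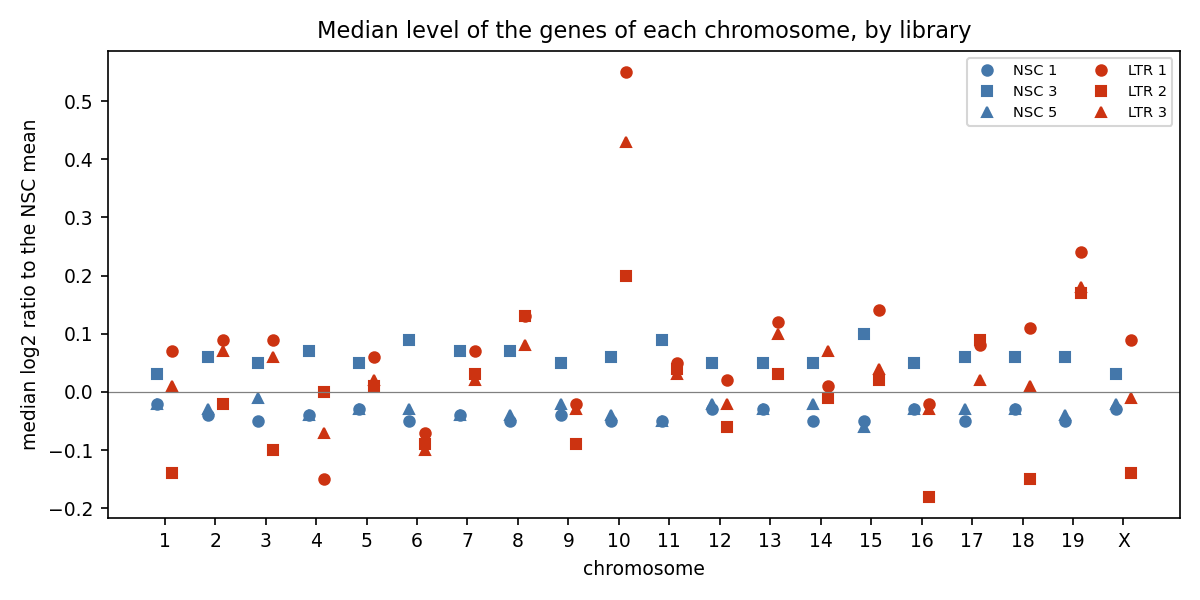
Median log2 ratio of each library to the mean of the NSC libraries over the genes of each chromosome (mean of at least 5 CPM), with NSC in blue and LTR in red. On chromosome 10 the LTR libraries lie at 0.20 to 0.55, above all NSC libraries; on chromosome 19 they lie at 0.17 to 0.24.

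The direction of change went with transcript length. Across 15208 genes with an annotated exon length, Spearman's rho between length and log2 difference was -0.22, as a description over genes of the same libraries. Of 5 groups of equal size by length, the shortest (median 1360 bases) had 24.8% higher and 13.8% lower, and the longest (9700 bases) 13.0% higher and 36.6% lower. Ribosomal protein genes are among the short ones. The part of length in the results above was not tested.

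The LTR cultures were not alike for every gene. Il33, an alarmin cytokine, measured 106, 5.78 and 3.51 CPM in LTR 1, 2 and 3 and 2.37, 1.74 and 3.5 CPM in NSC; it was called (3.92 ± 1.27, adjusted p = 0.036), but at 0.86 on the log2 scale and not past the test without LTR 1, nor without any 1 NSC library. Trpa1, an irritant-sensing ion channel, measured 8.66, 93.8 and 31.9 CPM in LTR and 0.678, 1.89 and 1.22 CPM in NSC (5.13 ± 0.90, adjusted p = 0.00296). Crabp1, a retinoic acid binding protein (229, 1892 and 469.8 CPM), and S100a6, a calcium-binding protein (21.3, 409 and 54.4 CPM), were both highest in LTR 2 and not called (1.97 ± 0.71, adjusted p = 0.054 and 0.75 ± 0.99, adjusted p = 0.56). Among the stem cells, NSC 3 differed from the other 2. Ifi202b, an interferon-inducible gene, measured 104, 0 and 92.5 CPM and Thbs1, thrombospondin 1, 936, 42.1 and 1556 CPM in NSC 1, 3 and 5. Eno1b measured 194, 2.59 and 206 CPM where its near-identical copy Eno1 measured 496, 1209 and 505 CPM, and how reads were split between the 2 copies was not tested. Thbs1 was called (-3.61 ± 1.04, adjusted p = 0.0235), but not without NSC 5 or any 1 LTR library.

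Between LTR and the other tumour cells, calls depended on the tool. With all 9 libraries fitted, edgeR called 0 of 15696 genes between LTR and NF1 (0.0%), 1596 had an unadjusted p below 0.05, and the smallest adjusted p was 0.122. DESeq2 called 330 (2.1%; 132 higher and 198 lower in LTR), limma-voom 1, and edgeR 34 without NF1 2. The library NF1 2 carried stem cell transcripts at far higher levels than the other 2: Fabp7 measured 4.96, 343 and 1.74 CPM and Ptprz1 6.03, 387 and 0.956 CPM in NF1 1, 2 and 3.

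Among genes that rose in LTR, some were at or near 0 in NF1, some at a low level and some at a level close to that of LTR. Values here are on the scale of the 9-library fit. Lhx1 measured 24, 9.27 and 8 CPM in LTR and 0 in every NF1 library (adjusted p = 0.179 by edgeR, 7.78e-13 by DESeq2, and 0.0434 by edgeR without NF1 2). Spint1 measured 14.1, 24.6 and 23.1 CPM in LTR and 1.39, 2.56 and 1.95 CPM in NF1 (0.205, 5.14e-12 and 0.0628 by the same 3 fits), and Cdx2 25.9, 15 and 3.82 and 0.725, 0 and 1.16 CPM (0.353 by edgeR and 0.212 by DESeq2). By contrast Flt3 measured 46.8, 19.4 and 42.1 CPM in LTR and 47.6, 32 and 26.8 CPM in NF1 (log2 difference 0.03), Rnf183 9.19, 17.3 and 8.75 and 10.8, 15.1 and 11.9 CPM (-0.10), and Hmga2 691, 500.0 and 781 and 687, 748 and 658 CPM (-0.09). Asns and Trib3 measured 274, 216 and 418 and 30.3, 96.2 and 68.4 CPM in NF1 against 488, 339 and 208 and 146, 29.9 and 23.7 CPM in LTR. Pcdhga7, a protocadherin that fell in LTR, measured 4.75, 17 and 2.05 CPM in NF1 and 0.267, 0.305 and 0.448 CPM in LTR (adjusted p = 0.179 by edgeR, 1.1e-07 by DESeq2 and 0.0285 by edgeR without NF1 2). LTR and NF1 were each compared with the same NSC libraries, so likeness between those comparisons is not given as a result.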

How the data were processed

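Gene expression was measured by RNA sequencing of total RNA (RNeasy extraction, NEBNext Ultra libraries, per the labels' protocols). The authors deposited 1 table of raw counts per gene for all 9 libraries. Reads were aligned with STAR 2.5.2a and counted with HTSeq on GRCm38 (mm10), and DESeq2 1.8.2 is also named, per the submitters' processing notes; the sources used here give no strand setting, annotation or treatment of multiply mapped reads. Libraries were grouped by their labels. From the counts, edgeR 4.0.16 in R 4.3.3 gave the main results: TMM scaling, filterByExpr with a minimum count of 10 (15249 of 47729 genes kept), quasi-likelihood F test with group as the only term, Benjamini-Hochberg adjustment over all genes tested and a threshold of 0.05. A prior count of 0.125 enters fitted log2 differences. Genes with no count in a group are therefore given as the mean of the other group over a floor of 3 counts in the group at 0. Those with 1 to 3 counts are given as the ratio of the groups and its exact 95% interval for counting. Both cover counting error only. LTR and NF1 were compared in 1 model of all 9 libraries. DESeq2 1.42.0, limma-voom (limma 3.58.1), other scalings and filters, GC offsets and leaving out each library were alternatives. Coordinates, lengths and GC content are from GENCODE M21 (GRCm38), matched for 47224 IDs; promoters are from RefSeq (GRCm38.p6). The tests were run on simulated counts in which few genes were changed, evenly up and down. That setting does not cover changes as many or as one-sided as those found here.

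The genes and the 54 lists were chosen with earlier results of these data known, so no list is independent evidence of its direction. Genes named were those in the labels, the 12 largest increases and decreases at 8 CPM or more without overlap, the 10 of each direction with the largest CPM difference, up to 6 called, 3 abundant called and 3 abundant uncalled members of each list, and the 6 genes most variable within each group; exceptions are stated, and a few genes the rule names are not reported here. Every pair of replicate libraries differed beyond counting noise, so none was merged. Of the replicate numbers only 1 and 3 occur in both groups, and libraries with the same number did not deviate together (r = 0.093 and -0.046).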

Additional observations from a re-analysis of the deposited data

Results flagged for a closer look

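Rps6ka6, a ribosomal S6 kinase of the MAPK pathway encoded on the X chromosome, stood out because the 2 kinds of tumour cell lay on opposite sides of the stem cells in every library. On the scale of the 9-library fit it measured 62.6, 69.5 and 64.5 CPM in LTR 1, 2 and 3, 25.5, 40.8 and 28.5 CPM in NSC 1, 3 and 5 and 16.4, 18.2 and 18.5 CPM in NF1 1, 2 and 3. The log2 difference between LTR and NF1 was 1.89, with an adjusted p of 0.122 by edgeR, 5.79e-12 by DESeq2 and 0.0285 by edgeR without NF1 2. LTR against NSC it was called in the 6-library fit (1.08 ± 0.21, adjusted p = 0.00498, log2 difference ± SE). Only the genes picked by the rule for named genes were examined, and among them Rps6ka6 alone lay on opposite sides in this way. It was picked by these same values, so its adjusted p-values between LTR and NF1 are no independent support.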

How the results depend on the processing

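The number of genes called between LTR and NSC was 7084, and between 4872 and 7841 under 3 other scalings, 2 other filters, 2 other tools, GC offsets and the fit of all 9 libraries; it was 2817 by glmTreat against a 2-fold change. All calls shared with the 6-library fit had the same direction under each of these. With glmTreat 704 genes rose and 2113 fell, and 2817 passed at 2-fold. The filter of 10 CPM in 3 libraries tested 9876 genes and left 2571 lower and 2778 changed at least 2-fold; by the same construction it left fewer members of the low lists, such as 6 lower protocadherins. Leaving out 1 library gave 5172 to 8022 calls, 1895 to 3679 higher, 3277 to 4343 lower and 4336 to 5839 at 2-fold; the fewest came without NSC 1 and the most without NSC 3. Rpl29, at -3.19 on the log2 scale, ranged from -3.76 without NSC 1 or NSC 5 to 1.28 without NSC 3.

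With the replicate number as a block 5130 genes were called, 2074 higher and 3056 lower, 4846 of them shared; only 2 numbers occur in both groups and they did not pair the libraries. It left 18 ribosomal protein genes higher.

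Between LTR and NF1, edgeR called 0 genes, 52 without a filter and 0 to 34 with 1 library left out (34 without NF1 2 and 1 without NSC 3), DESeq2 330 and limma-voom 1. LTR and NF1 libraries share a lane by their column names. With 3 cultures a group and 28600479 counts in the shallowest library, small changes were not separable from the spread between cultures.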
